A study of Mus musculus with 20 samples.

Results

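The genes described here are 46 mouse genes that encode the machinery of DNA replication, from the proteins that mark and license origins to those that copy, seal and untangle DNA at the fork. They are a list of names, drawn up with earlier results of these data known. All 46 were found among the 18193 genes named on the array, each was read from the probe set that was brightest on average, and all 46 passed the filter on low values. Origins are licensed and fired in separate phases of the cell cycle. Before S phase the origin recognition complex, together with Cdc6 and Cdt1, loads rings of the helicase subunits Mcm2 to Mcm7 onto DNA, and geminin (Gmnn) later holds Cdt1 back so that no origin is licensed again. The kinase Cdc7 with Dbf4 then turns the loaded rings, with Cdc45 and the GINS proteins, into moving helicases that polymerases, the sliding clamp and its loader follow. Most of these genes are transcribed under E2F factors when cells cycle, and neurons that have left the cycle keep many of them low.

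Transcript levels came from Affymetrix Mouse Genome 430 2.0 chips, with 1 chip per sample and 20 samples in all, taken from mice with and without a MYCN transgene, a model of neuroblastoma, which is a tumor of the sympathetic nervous system. Wild-type mice of the 129+Ter/SvJcl background gave 4 ganglion samples and 2 neurosphere cultures, which are free-floating cultures of proliferating neural cells. Mice homozygous for the transgene (MYCN Tg homozygote, mixed 129+Ter/SvJcl background) gave 2 ganglion samples and 4 tumors, and homozygous mice that also carried a knockout of Mdk, the gene of the growth factor midkine, gave 2 tumors. Mice with the transgene as a hemizygote, on the same mixed background, gave 4 tumors and 2 tumorsphere cultures, which are the corresponding cultures of tumor cells. The promoter that drives the transgene, the ages of the mice and the pooling of animals are not given in the sources used here. The labels name no agent. They also do not state whether replicates are separate animals or cultures, and the p-values then measure only the spread between the samples at hand, part of which may be technical.

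Values are probe set intensities, and changes are differences of log2(intensity + 16), a scale that understates the change of dim genes. Each adjusted p comes from limma over 15132 genes, with a threshold of 0.05, and "rose", "fell", "higher than" and "lower than" with a p refer to that test. The Mdk-KO tumors carried 42.6 and 35.5 of Mdk intensity against 297, 268, 269 and 271 in the homozygous tumors, as their label says. The mouse gene Mycn read 323, 236, 304 and 413 in wild-type ganglia, 153, 134, 170.5 and 120.4 in homozygous tumors, 15.7, 19.1, 43.9 and 77.7 in hemizygous tumors and 351 and 583 in tumorspheres, so its levels do not follow the transgene labels, and whether its probe set reads the transgene was not tested. Wild-type neurospheres were low in the sympathetic markers Th (14.1 and 9.72) and Prph (1.28 and 0.653). Elavl4, of the same list, read 566 and 297 there and 467 to 2434 in wild-type ganglia, so these groups overlapped. Of the neural stem cell markers, Sox2 (3783 and 3296) and Olig2 (469.5 and 988) were high in neurospheres, whereas Nes read 58.1 and 51.0 and Gfap 29.4 and 4.36. Tumorspheres held 3097 and 3328 of Th and 54.1 and 79.7 of Dbh. Hemizygous tumors were low in Prph (8.88, 66.0, 1.78 and 3.74).

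The tissues differed in more than replication genes, and these values stand beside every comparison with wild-type ganglia. The summed intensity of 5 of 6 sympathetic neuron markers was 8971 to 16899 in wild-type ganglia, 7718 to 9441 in homozygous ganglia, 4168 to 5347 in homozygous tumors, 2096 to 3468 in hemizygous tumors and 355 to 672 in neurospheres. The 4 fibroblast markers summed to 11717 to 14052 in wild-type ganglia, 11170.4 to 11892 in homozygous ganglia, 2914 to 3574 in homozygous tumors and 1257 to 3797 in hemizygous tumors, and 4 of 6 glial markers to 7112 to 8928, 6102 to 6227, 927 to 1057 and 632 to 1019. Single markers did not all follow the sums. The glial marker Mbp read 181, 97.0, 53.2 and 57.9 in wild-type ganglia and 230, 279, 291 and 346 in homozygous tumors. The neuron marker Elavl4 read 659, 467, 2434 and 1868 in wild-type ganglia and 873, 952, 1583 and 1468 in homozygous tumors, so these groups overlapped. None of these neuron, glia and fibroblast markers was at 0 on any ganglion array. For beta-actin, a control of RNA integrity, the signal ratio of 3′ over 5′ probes was 4.36 to 9.14 in wild-type ganglia, 4.02 to 4.68 in homozygous ganglia, 2.44 to 2.81 in homozygous tumors, 1.96 to 2.69 in hemizygous tumors, 3.78 to 7.77 in neurospheres and 2.34 to 2.64 in tumorspheres. The same ratio for Gapdh overlapped between most groups, with 2.56 to 4.13 in wild-type ganglia, 3.75 to 3.91 in homozygous ganglia, 2.77 to 3.61 in homozygous tumors, 2.71 to 3.14 in hemizygous tumors, 3.37 to 11.5 in neurospheres and 2.68 to 3.13 in tumorspheres. The marker sums and the beta-actin ratio moved with the groups, and their part in the results was not tested. In bulk tissue, fewer cycling cells and less RNA per cell cannot be told apart.

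Most of the replication genes were higher in tumors than in wild-type ganglia, and many were also higher in homozygous ganglia. In homozygous tumors 42 of the 46 genes were higher than in wild-type ganglia and 0 were lower (limma, adjusted p under 0.05), where 23.1% of all genes tested were called higher and 26.6% lower. Their median log2 fold change was 2.08, beside -0.12 over all genes tested. In hemizygous tumors 43 were higher and 0 lower, with a median of 2.33 beside -0.05, where 27% of all genes were called higher and 25.6% lower. In homozygous ganglia 32 were higher and 0 lower, with a median of 1.55 beside -0.03, where 3.99% of all genes were called higher and 1.02% lower. The count in homozygous ganglia was 17 without homozygous ganglion 1, 23 without homozygous ganglion 2 and 12 with only the compared arrays. These comparisons use the same 4 wild-type ganglion arrays, which were not alike. Averaged over the 46 genes, their log2 values were 6.78 and 7.21 on arrays 1 and 2 and 6.33 and 6.38 on arrays 3 and 4. Homozygous ganglia 1 and 2 had 8.37 and 8.06. The size of each change thus depends on which wild-type ganglia are used. For 38 of the 46 genes every homozygous tumor lay above every wild-type ganglion, while the same groups did not overlap, in either direction, for 43.7% of all genes. A change of over 4-fold was measured for 23 genes in homozygous tumors, 27 in hemizygous tumors and 12 in homozygous ganglia. Wild-type ganglia had the lowest mean of the 7 groups for 40 of the 46 genes. The shares of all genes that changed over 4-fold, or were lowest in wild-type ganglia, were not counted. The counts over 4-fold and the count of lowest means therefore describe the 46 genes only.

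**Figure D1:**
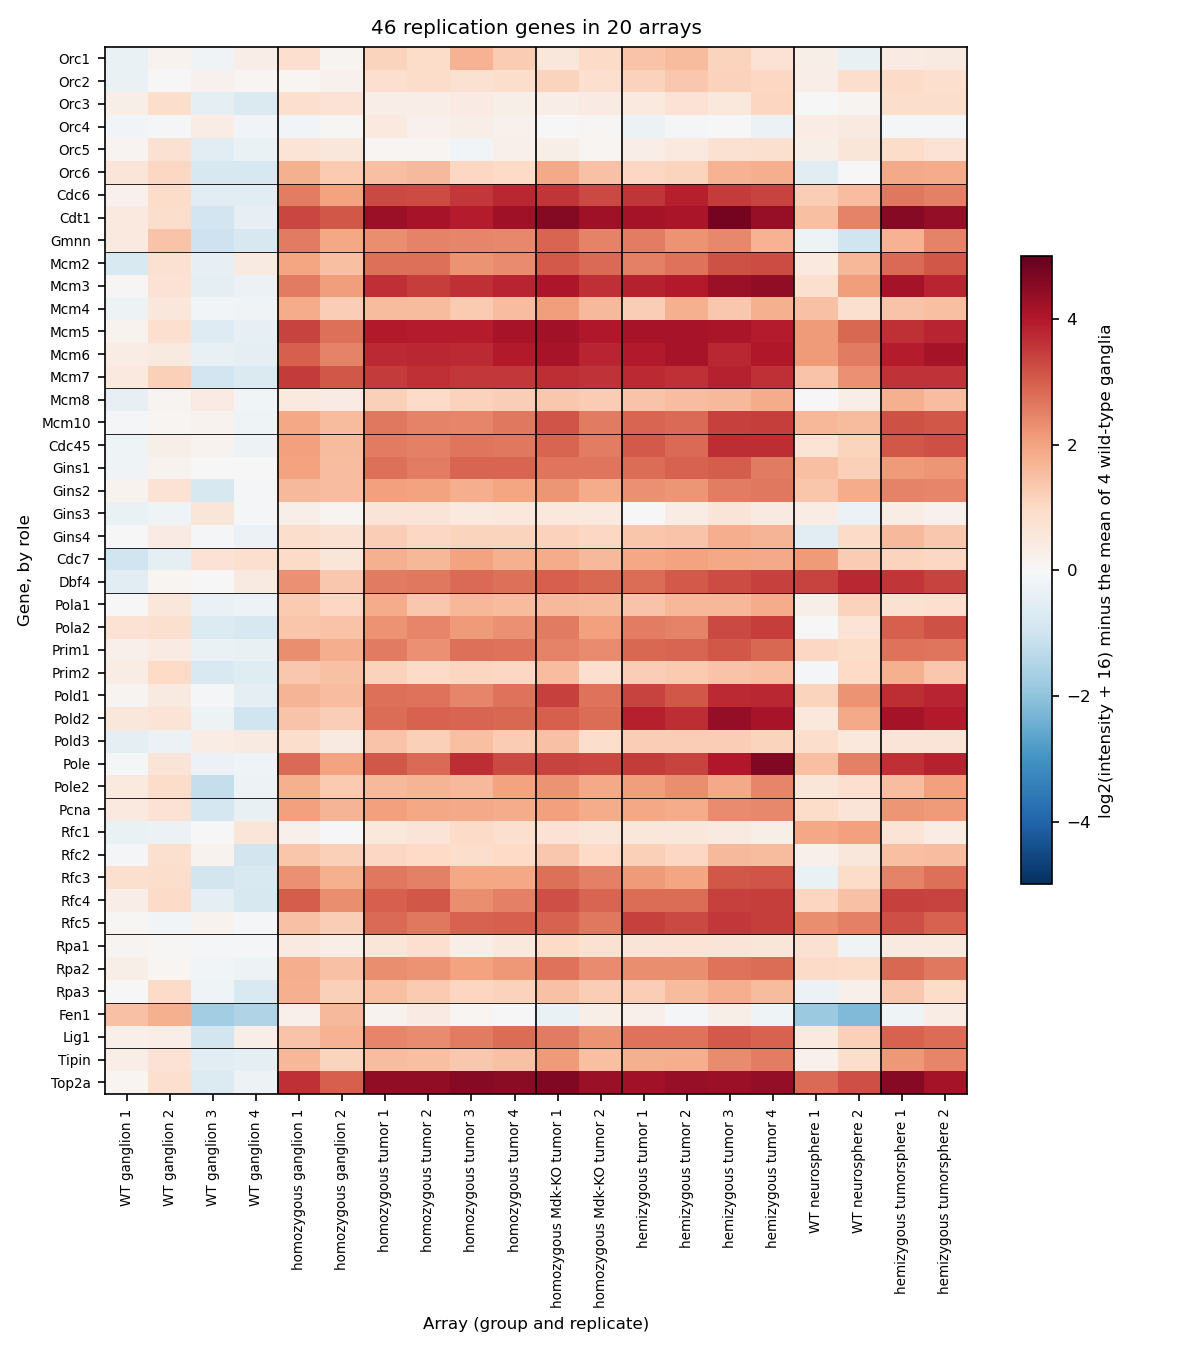
Log2(intensity + 16) of the 46 replication genes (rows, ordered by role) on the 20 arrays (columns, by group), each gene shown relative to its mean in the 4 wild-type ganglia. The wild-type ganglion arrays are low for most rows and the tumor and tumorsphere arrays are high, while Orc4 and Fen1 do not follow this order.

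Averaged over the 46 genes, the log2 value of an array was 6.33 to 7.21 in the 4 wild-type ganglia, 7.49 to 7.83 in the 2 neurospheres, 8.06 to 8.37 in the 2 homozygous ganglia and 8.69 to 8.75 in the 4 homozygous tumors. It was 8.70 to 8.95 in the 2 Mdk-KO tumors, 8.89 to 8.90 in the 2 tumorspheres and 8.85 to 9.13 in the 4 hemizygous tumors. Wild-type ganglia, neurospheres, homozygous ganglia and homozygous tumors did not overlap with each other. The ranges of Mdk-KO tumors, tumorspheres and hemizygous tumors overlapped.

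**Figure D2:**
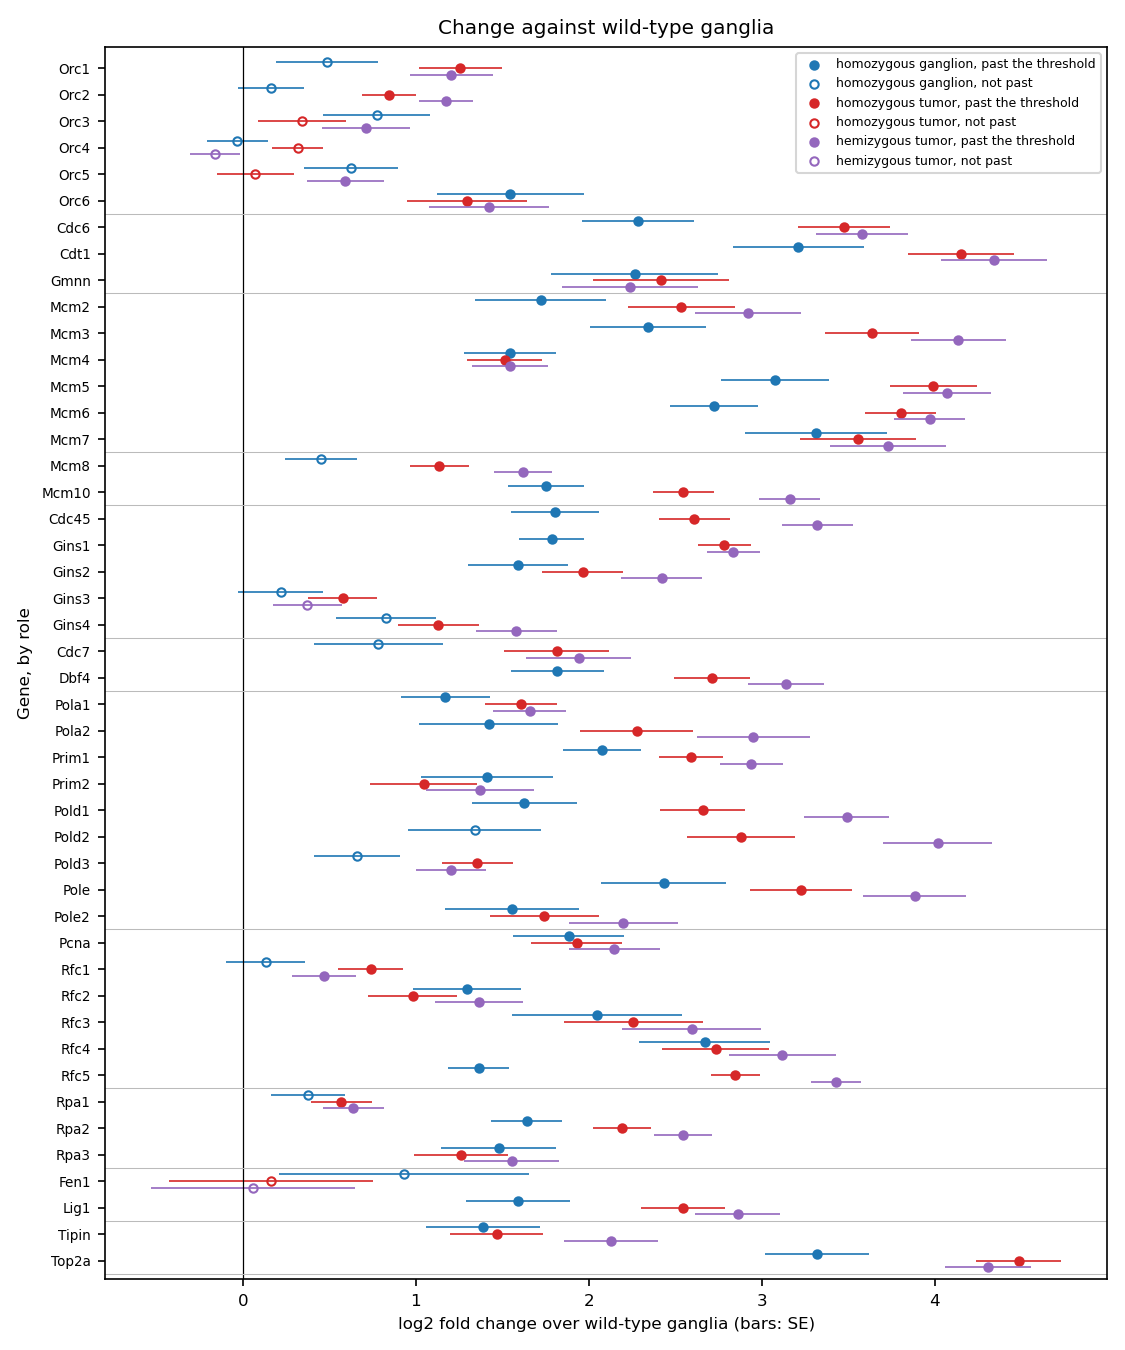
Log2 fold change over wild-type ganglia (horizontal axis, bars are SE of the limma fit) of each replication gene (vertical axis, by role) in homozygous ganglia (blue, n = 2), homozygous tumors (red, n = 4) and hemizygous tumors (purple, n = 4), with filled points past the threshold. All MCM2-7 genes, Cdc6, Cdt1 and Gmnn are filled in the 3 groups, whereas Orc4 and Fen1 are open in all of them.

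The loading factors Cdt1 and Cdc6 were among 8 genes that changed over 8-fold in homozygous tumors, with Mcm3, Mcm5, Mcm6, Mcm7, Pole and Top2a. Cdt1 (chr8:122568015-122573130, GRCm38.p6), which brings the MCM rings to origins, read 106, 142, 28.8 and 49.8 in wild-type ganglia, 855 and 728 in homozygous ganglia, 1664, 1516, 1317 and 1633 in homozygous tumors and 1529, 1452, 2359 and 1782 in hemizygous tumors. No array of a transgenic group overlapped with the wild-type ganglia. The log2 fold change over wild-type ganglia was 4.15 ± 0.31 SE, adjusted p = 5.89e-09, in homozygous tumors, 4.34 ± 0.31 SE, adjusted p = 2.26e-09, in hemizygous tumors and 3.21 ± 0.38 SE, adjusted p = 2.05e-05, in homozygous ganglia. Cdc6, an ATPase that joins the origin recognition complex before the helicase is loaded, read 19.0, 42.0, 4.74 and 4.29 in wild-type ganglia against 164 and 106 in homozygous ganglia, 282, 276, 341 and 403 in homozygous tumors and 350.1, 432, 324 and 296 in hemizygous tumors. It rose by 3.47 ± 0.27 SE on the log2 scale in homozygous tumors and by 2.28 ± 0.33 SE in homozygous ganglia. The inhibitor of this step rose as well: Gmnn read 374, 755, 124 and 148 in wild-type ganglia and 1443, 1571, 1568 and 1503 in homozygous tumors, which is a log2 change of 2.41 ± 0.39 SE, adjusted p = 5.80e-05.

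Cdt1 rose by a larger factor than its inhibitor. The log2 ratio of Cdt1 to Gmnn within an array was -1.67, -2.28, -1.64 and -1.32 in the wild-type ganglia, 0.20, -0.05, -0.25 and 0.12 in homozygous tumors and -0.14, 0.10, 0.63 and 0.90 in hemizygous tumors. Every tumor lay above every wild-type ganglion. Because the probes of both genes differ, only the change of the ratio between groups can be read, not its sign. The mean difference was 1.73 in homozygous tumors and 2.10 in hemizygous tumors (both exact permutation p = 0.0286, two-sided, the smallest that 4 against 4 arrays allow, adjusted p = 0.0429 over 3 comparisons). Hemizygous and homozygous tumors differed by 0.37 (exact permutation p = 0.257). By its second probe set Cdt1 rose by 3.60 in homozygous and 4.12 in hemizygous tumors, beside 2.41 and 2.24 for Gmnn. Averaged over all probe sets of each gene, which adds a Cdt1 probe set with a mean intensity of 0.838, the difference was 0.16 (exact permutation, adjusted p = 0.771) in homozygous and 0.58 (adjusted p = 0.471) in hemizygous tumors. Homozygous ganglia had ratios of -0.99 and -0.58, and the groups of 2 arrays were not tested.

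All 6 subunits of the MCM2-7 helicase rose in homozygous tumors, hemizygous tumors and homozygous ganglia, with median log2 fold changes of 3.60, 3.85 and 2.53. Mcm5 (chr8:75109468-75128439) read 106, 176, 52.8 and 63.5 in wild-type ganglia, 1104 and 702 in homozygous ganglia, 1660.3, 1606, 1603 and 1847 in homozygous tumors and 1859, 1833, 1784 and 1622 in hemizygous tumors. Its level rose 15.9-fold on this scale in homozygous tumors, which is a log2 change of 3.99 ± 0.25 SE, adjusted p = 9.00e-10. Mcm3 and Mcm6 changed by similar amounts, 3.64 ± 0.27 SE and 3.80 ± 0.21 SE in homozygous tumors. Mcm6 was 73.3, 80.4, 37.7 and 35.2 in wild-type ganglia, 531 and 372 in homozygous ganglia and 915, 932, 916 and 1072 in homozygous tumors, so that the homozygous ganglia lay between both. Mcm7 did not show this intermediate position: it read 319, 531, 106 and 129 in wild-type ganglia, 2709 and 2039 in homozygous ganglia and 2667, 2986, 2765 and 2761 in homozygous tumors, and homozygous tumors and ganglia overlapped. Mcm2 rose by 2.53 ± 0.31 SE. The subunit with the smallest change was Mcm4, which read 265, 477, 284 and 278 in wild-type ganglia and 993, 990.0, 802 and 964 in homozygous tumors, which is a log2 change of 1.51 ± 0.22 SE, adjusted p = 1.55e-05. Its homozygous ganglia, at 1184 and 770.1, spanned the level of the tumors. By the second Mcm4 probe set the ganglia, at 442 and 314, lay below the homozygous tumors, at 576, 476, 573 and 604. For Mcm4 and Mcm7 the position of the ganglia thus depends on the probe set. The brightest probe sets of all 6 genes, and of Gins2, Pold1, Rfc4 and Fen1, have names that mark them as able to match several transcripts, and which transcripts they read was not tested. The second probe sets of the 6 genes rose as well, by 2.37 to 3.93 in homozygous tumors and 1.43 to 2.97 in homozygous ganglia.

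Both MCM genes outside the ring also rose in tumors. Mcm10, which binds the helicase as it is activated, read 29.3, 36.1, 38.5 and 25.4 in wild-type ganglia, 168 and 126 in homozygous ganglia and 281, 249, 244 and 285 in homozygous tumors. By its second probe set Mcm10 changed by 0.42 (adjusted p = 0.0321) in homozygous and 0.37 (adjusted p = 0.053) in hemizygous tumors, beside 2.55 and 3.16 by the brightest. Mcm8, a helicase subunit known for its part in DNA repair by recombination, was dim on every array, with 8.94, 20.1, 27.2 and 13.6 in wild-type ganglia and 58.0, 47.5, 57.2 and 61.6 in homozygous tumors. It passed in homozygous tumors (1.13 ± 0.17 SE, adjusted p = 2.34e-05) and did not pass in homozygous ganglia (0.45 ± 0.21 SE, adjusted p = 0.216).

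The start-site regions of these loading genes are shown because the genes moved together and E2F factors are known to control several of them. RefSeq promoter windows (GRCm38.p6, 250 bases before to 50 after a start listed for the gene) were found for 37 of the 46 genes, 46 windows in all. The listed start can lie away from the end of the gene record, as it does for Orc1 and Cdc6. No window was found for Mcm4, Gmnn, Gins1, Gins2, Gins4, Prim2, Pole, Rfc2 and Tipin. The letters TTTCCCGC, TTTCGCGC, TTTGCCGC or TTTGGCGC, on either strand, which match the E2F consensus, occurred in at least 1 window of 16 of the 37 genes (43.2%), against 4.27% of the 12117 genes tested that have a window and 2.61% of all 27025 genes that have one. The genes with a match were Mcm3, Mcm5, Mcm6, Mcm7, Mcm8, Cdc6, Cdt1, Orc1, Orc3, Gins3, Pola1, Pold1, Pold3, Pole2, Rfc3 and Lig1. Stretches of 28 bases around a match follow, 5′ to 3′ along the gene, with the match in capitals.
Mcm3, chr1:20820276-20820303, minus strand: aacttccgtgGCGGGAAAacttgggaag
Mcm5, chr8:75109346-75109373, plus strand: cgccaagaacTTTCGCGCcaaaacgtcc
Mcm6, chr1:128359735-128359762, minus strand: attggacgggTTTGGCGCgaagtagctc
Mcm7, chr5:138172031-138172058, minus strand: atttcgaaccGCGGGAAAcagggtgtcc
Cdc6, chr11:98908003-98908030, plus strand: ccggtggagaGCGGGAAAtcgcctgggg
Cdt1, chr8:122568037-122568064, plus strand: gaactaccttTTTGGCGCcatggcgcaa
Orc1, chr4:108579417-108579444, plus strand: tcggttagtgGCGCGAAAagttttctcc
Orc3, chr4:34614966-34614993, minus strand: catgcctcccTTTCCCGCacgccccgcc
Pola1, chrX:93632276-93632303, minus strand: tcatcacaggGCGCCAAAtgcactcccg
In Mcm5 a further match on the other strand overlaps the one shown, in Mcm6 a pair of overlapping matches lies upstream, and the windows of Mcm3 and Mcm7 hold another match each. A match is a description of the letters and does not show that a factor binds there. Genes with a match had a median log2 fold change of 2.40 in homozygous tumors over wild-type ganglia, with a range of 0.34 to 4.15, and the 21 genes without one had a median of 2.19, with a range of 0.07 to 4.49. Orc1 and Orc3 carried a match and changed by 1.26 and 0.34, while Top2a carried none and changed by 4.49.

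Longer upstream stretches of 3 genes are shown for comparison: Mcm6 with matches, Top2a with a large change and no match, and Orc5 with neither. Each line gives the 150 bases before the start that defines the RefSeq window (for Top2a this start lies inside the end of the gene record), with E2F letters and the CCAAT box (CCAAT or its reverse ATTGG) in capitals.
Mcm6, chr1:128359706-128359855, minus strand: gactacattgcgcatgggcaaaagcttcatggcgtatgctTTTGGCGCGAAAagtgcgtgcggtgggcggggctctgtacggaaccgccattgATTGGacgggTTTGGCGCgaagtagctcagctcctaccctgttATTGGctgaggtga
Top2a, chr11:99024190-99024339, minus strand: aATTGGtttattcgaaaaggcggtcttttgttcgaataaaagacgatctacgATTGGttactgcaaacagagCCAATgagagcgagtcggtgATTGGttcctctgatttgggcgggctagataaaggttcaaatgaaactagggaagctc
Orc5, chr5:22550339-22550488, minus strand: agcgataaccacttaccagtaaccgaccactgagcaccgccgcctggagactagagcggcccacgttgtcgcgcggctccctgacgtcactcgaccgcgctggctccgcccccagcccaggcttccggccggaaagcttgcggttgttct
The Orc5 stretch holds neither. The CCAAT box, a site of the factor NF-Y found in many genes of the cell cycle, occurred for 23 of the 37 genes (62.2%), against 42.3% of genes tested and 41.1% of all genes. Genes with it had a median log2 fold change of 2.19 and the 14 without it 2.41. The letters TTTGAA, or TTCAAA on the other strand, which mark cell cycle genes homology regions, occurred for 8 genes (21.6%, against 14.6% of genes tested and 20.2% of all genes). The E-box CACGTG, a palindrome bound by MYC family proteins, occurred for 7 (18.9%, against 10.9% of genes tested and 8.09% of all genes): Mcm8, Orc4, Pola2, Rfc1, Rpa1, Fen1 and Lig1. These 7 had a median log2 fold change of 0.74 in homozygous tumors, and the 30 genes without the E-box 2.54. Both medians use the brightest probe sets. By those, Fen1 changed by 0.16, Rpa1 by 0.57, Pola2 by 2.28, Rfc1 by 0.74 and Orc4 by 0.32. By second probe sets they changed by 2.46, 1.37, 0.55, 0.10 and -0.11, so the values of these genes depend on the probe set.

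The origin recognition complex, the 6-subunit ATPase that marks origins and stays on chromatin through much of the cycle, had a median log2 fold change of 0.59 over its 6 genes in homozygous tumors, beside 2.08 over all 46 genes. Orc1, Orc2 and Orc6 rose there and Orc3, Orc4 and Orc5 did not pass. In hemizygous tumors 5 of the 6 rose and Orc4 did not pass, and in homozygous ganglia Orc6 alone passed. Orc6 read 216, 297, 70.7 and 70.9 in wild-type ganglia and 416, 459, 299 and 293 in homozygous tumors (1.30 ± 0.35 SE, adjusted p = 0.00452). The highest ganglion, at 297, lay above the lowest tumor, at 293. Orc1, an ATPase subunit whose level is known to vary through the cycle, read 19.4, 34.9, 23.7 and 40.2 in wild-type ganglia and 80.0, 68.7, 134 and 91.4 in homozygous tumors (1.26 ± 0.24 SE, adjusted p = 2.71e-04), and Orc2 read 84.0, 113, 129.8 and 119 and 210.4, 221, 196 and 217 (0.85 ± 0.16 SE, adjusted p = 1.98e-04). Neither overlapped between these groups.

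Orc4 (chr2:48902824-48952902) stayed within a narrow range over all groups. It read 142, 149.9, 208 and 144 in wild-type ganglia, 144 and 167 in homozygous ganglia, 231, 185, 204 and 189 in homozygous tumors, 128, 148, 160.1 and 128 in hemizygous tumors and 212 and 223 in neurospheres. Its group means spanned 0.57 on the log2 scale, against 4.49 for Top2a, and the highest group was the wild-type neurospheres and the lowest the hemizygous tumors. The log2 fold change was 0.32 ± 0.15 SE, adjusted p = 0.0794, in homozygous tumors and -0.16 ± 0.15 SE, adjusted p = 0.37, in hemizygous tumors. Orc3 and Orc5 were spread within the wild-type ganglia, at 119, 189, 64.1 and 50.3 and at 185, 290.3, 106 and 129.9. That spread enclosed all 4 homozygous tumors, which read 122, 125, 129 and 118 for Orc3 and 177, 176, 151 and 201 for Orc5. The 95% intervals of the log2 fold change in homozygous tumors were -0.19 to 0.87 for Orc3, 0.01 to 0.62 for Orc4 and -0.40 to 0.54 for Orc5, without a doubling in them. They use a spread shared by all 7 groups. The log2 SD in wild-type ganglia was 0.74 for Orc3 and 0.58 for Orc5, against 0.05 and 0.15 in homozygous tumors. The intervals of Orc3 and Orc5 may therefore be too narrow, and a doubling of these genes is not excluded by them.

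**Figure D3:**
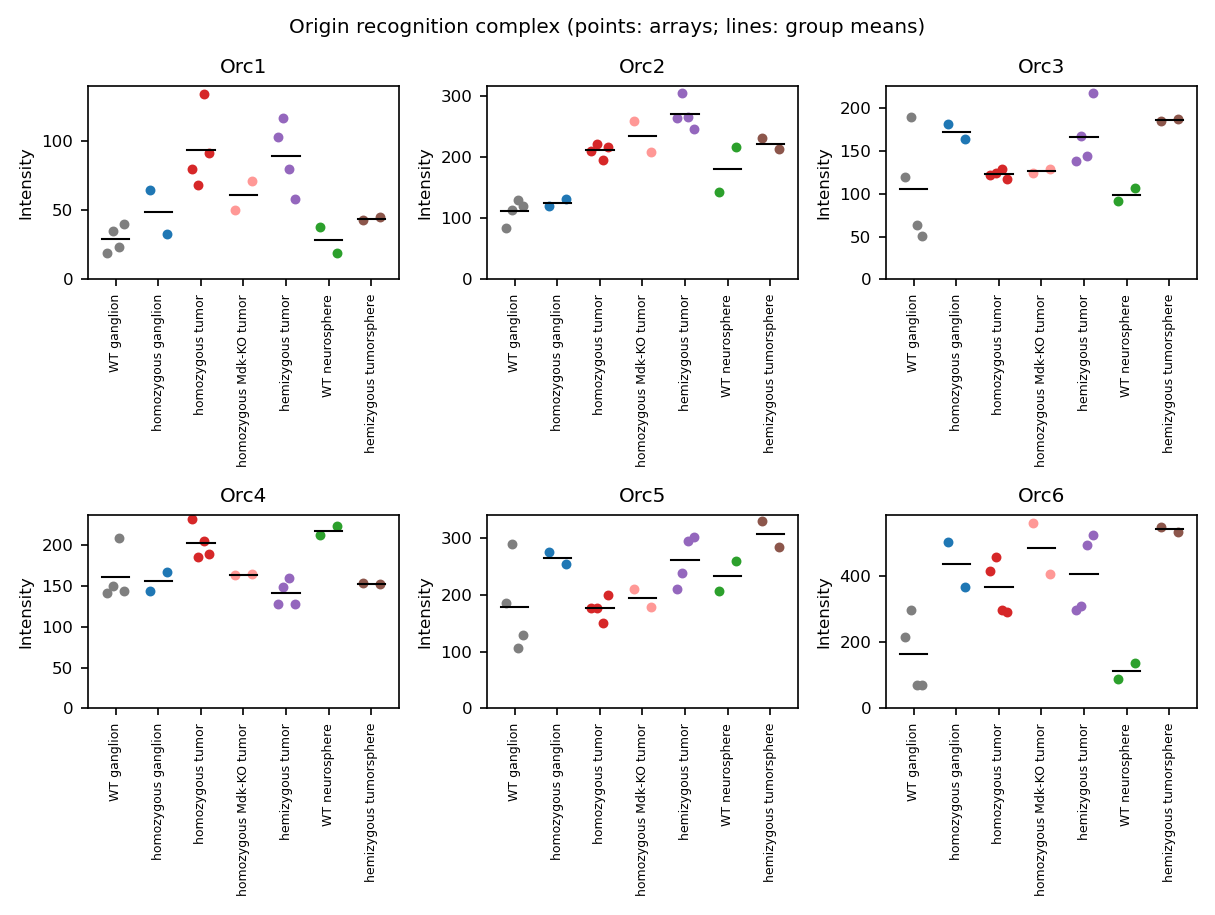
Intensity of the 6 origin recognition complex genes (vertical axes, linear, from 0) on each array, by group; points are arrays and lines are group means. Every homozygous tumor lies above every wild-type ganglion for Orc1 and Orc2, and the groups overlap for Orc3, Orc4, Orc5 and Orc6.

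Helicase activation was represented by Cdc45, the 4 GINS genes and the kinase pair Cdc7 and Dbf4. Cdc45, which travels with the MCM ring, read 17.7, 32.8, 28.9 and 17.3 in wild-type ganglia, 147 and 101 in homozygous ganglia, 226, 211, 239 and 227 in homozygous tumors and 315, 268, 492 and 498 in hemizygous tumors, with no overlap between any of these 4 groups. Its log2 fold change over wild-type ganglia was 2.61 ± 0.21 SE, adjusted p = 1.22e-08, in homozygous tumors. The second Cdc45 probe set was dim, with a mean intensity of 37.5, and the groups overlapped. It read 17.0, 17.1, 44.5 and 38.6 in wild-type ganglia and 50.1, 40.6, 51.1 and 50.2 in homozygous tumors. Over wild-type ganglia it changed by 0.55 in homozygous tumors, 0.66 in hemizygous tumors and 0.03 in homozygous ganglia. The GINS subunits did not move alike. Gins1 rose by 2.78 ± 0.15 SE and Gins2 by 1.96 ± 0.23 SE in homozygous tumors, Gins4 by 1.13 ± 0.24 SE, and Gins3 by only 0.58 ± 0.20 SE, adjusted p = 0.0224. Gins3 read 29.2, 33.5, 69.8 and 39.5 in wild-type ganglia and 72.6, 73.7, 63.8 and 66.9 in homozygous tumors, so the groups overlapped, and it did not pass in hemizygous tumors (0.37 ± 0.20 SE, adjusted p = 0.126).

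The kinase subunits that fire origins rose in both kinds of tumor. Dbf4, the regulatory subunit, read 19.4, 38.4, 34.1 and 53.2 in wild-type ganglia, 232 and 113 in homozygous ganglia and 295, 301, 349 and 328 in homozygous tumors (2.71 ± 0.22 SE, adjusted p = 1.59e-08). The catalytic subunit Cdc7 read 90.2, 133, 331 and 347 in wild-type ganglia, where arrays 1 and 2 were lower than arrays 3 and 4, and 716, 657, 843 and 705 in homozygous tumors (1.82 ± 0.30 SE, adjusted p = 7.46e-05). In homozygous ganglia Dbf4 rose and Cdc7, at 394 and 306, did not pass (0.78 ± 0.37 SE, adjusted p = 0.232).

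All 9 polymerase and primase genes rose in both kinds of tumor, with median log2 fold changes of 2.28 in homozygous and 2.94 in hemizygous tumors, and 7 of them in homozygous ganglia. Pole, the catalytic subunit of the leading-strand polymerase, was near the bottom of the scale in wild-type ganglia at 4.90, 18.3, 1.97 and 2.91 and read 143 and 74.4 in homozygous ganglia, 174, 144, 268 and 201 in homozygous tumors and 235, 218, 342 and 534 in hemizygous tumors. Its log2 fold change of 3.23 ± 0.30 SE in homozygous tumors depends on the added 16, since the wild-type values lie around or under it. Pold1, the catalytic subunit of the lagging-strand polymerase, read 31.2, 41.3, 24.0 and 13.9 in wild-type ganglia and 273, 259, 215 and 262 in homozygous tumors (2.66 ± 0.25 SE, adjusted p = 8.41e-08). Its accessory subunits differed: Pold2 rose by 2.88 ± 0.31 SE and Pold3 by 1.36 ± 0.20 SE. Prim1, the catalytic primase subunit that makes RNA primers, read 176, 195, 110.4 and 108 in wild-type ganglia and 954, 764, 1043 and 1029 in homozygous tumors (2.59 ± 0.18 SE, adjusted p = 3.25e-09), and its partner Prim2 rose by 1.05 ± 0.31 SE, adjusted p = 0.00918, with arrays of both groups overlapping. Pola1 and Pola2, subunits of the polymerase that extends the primers, rose by 1.61 ± 0.21 SE and 2.28 ± 0.33 SE, and Pole2 by 1.74 ± 0.32 SE.

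The sliding clamp Pcna and the 5 clamp loader genes all rose in both kinds of tumor. Pcna, the ring that tethers polymerases to DNA, read 788, 927, 294 and 420.2 in wild-type ganglia, 2358 and 1818 in homozygous ganglia and 2301, 2139, 2091 and 2036 in homozygous tumors (1.93 ± 0.26 SE, adjusted p = 8.70e-06). The homozygous ganglia spanned the level of the tumors. Among the loader subunits Rfc5 changed most in homozygous tumors, from 37.1, 31.4, 41.8 and 32.9 in wild-type ganglia to 349.9, 303, 384 and 392 (2.85 ± 0.14 SE, adjusted p = 1.10e-10). Rfc4 rose by 2.73 ± 0.31 SE, Rfc3 by 2.26 ± 0.40 SE and Rfc2 by 0.98 ± 0.26 SE. Rfc1, the large subunit, changed least, with 197, 204, 254 and 394 in wild-type ganglia and 370.3, 409, 508 and 453 in homozygous tumors (0.74 ± 0.19 SE, adjusted p = 0.003), and the groups overlapped. The second Rfc1 probe set changed by 0.10 (adjusted p = 0.746).

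Replication protein A, which coats the single strands opened by the helicase, is made of a large, a middle and a small subunit. The middle subunit Rpa2 read 78.8, 66.3, 54.3 and 48.3 in wild-type ganglia and 369, 349.7, 297 and 332 in homozygous tumors (2.19 ± 0.17 SE, adjusted p = 8.17e-09), and the small subunit Rpa3 rose by 1.26 ± 0.27 SE, adjusted p = 8.36e-04. The large subunit Rpa1 was bright in every group, with 1266, 1192, 1054 and 1065 in wild-type ganglia and 1746, 2046, 1424 and 1639 in homozygous tumors. It rose by a smaller amount (0.57 ± 0.18 SE, adjusted p = 0.0119) although the groups did not overlap, and it did not pass in homozygous ganglia (0.38 ± 0.22 SE, adjusted p = 0.323). By its second probe set, with a mean intensity of 297, Rpa1 changed by 1.37 in homozygous tumors and 0.89 in homozygous ganglia. The size of its change thus depends on the probe set.

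Okazaki fragments are finished by the nuclease Fen1 and the ligase Lig1. Lig1 read 97.9, 106, 35.2 and 106 in wild-type ganglia, 243 and 309 in homozygous ganglia and 503, 477, 567 and 653 in homozygous tumors (2.54 ± 0.24 SE, adjusted p = 1.31e-07). The value of Fen1 (chr19:10199132-10204393) depended on the probe set. Its brightest probe set read 5417, 6624, 560.1 and 672 in wild-type ganglia, so that arrays 1 and 2 lay far above arrays 3 and 4, and 2203, 2541, 2059.9 and 1896 in homozygous tumors, between both pairs (0.16 ± 0.59 SE, adjusted p = 0.838). Homozygous ganglia were also split, at 2313 and 5898. Against wild-type ganglia 1 and 2 alone the same probe set fell by 1.46 on the log2 scale in homozygous tumors (adjusted p = 0.000703). The second Fen1 probe set read 27.3, 25.04, 16.1 and 15.8 in wild-type ganglia, 107 and 64.9 in homozygous ganglia, 213, 178, 173 and 182 in homozygous tumors and 235, 217, 253 and 279 in hemizygous tumors. It rose without overlap by 2.46 in homozygous tumors (adjusted p = 5.81e-09), 2.83 in hemizygous tumors (adjusted p = 7.43e-10) and 1.45 in homozygous ganglia (adjusted p = 3.88e-04). The brightest Fen1 probe set is among the 10 named above as able to match several transcripts.

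**Figure D4:**
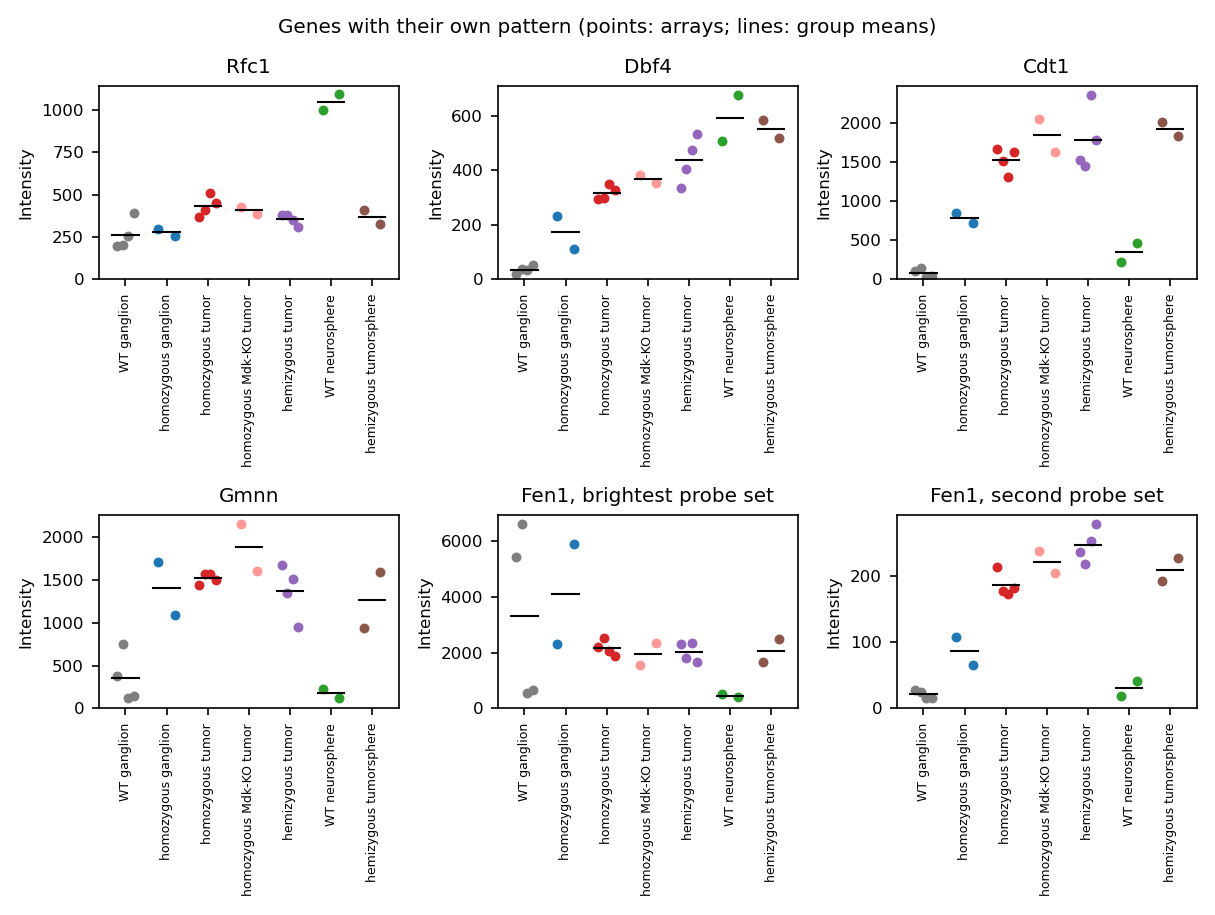
Intensity (vertical axes, linear, from 0) of Rfc1, Dbf4, Cdt1, Gmnn and both probe sets of Fen1 on each array, by group; points are arrays and lines are group means. The brightest Fen1 probe set splits the wild-type ganglia between 560 and 6624, whereas the second one lies between 15.8 and 27.3 there and between 173 and 213 in homozygous tumors, and Rfc1 and Dbf4 are highest in the neurospheres.

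Top2a (chr11:98992947-99024199), the topoisomerase that untangles finished sister DNA and peaks late in the cycle, had the largest change of the 46 genes in homozygous tumors by the brightest probe sets. It read 77.6, 143, 39.0 and 56.8 in wild-type ganglia, 1099 and 674 in homozygous ganglia, 1904, 1887, 2048 and 1974 in homozygous tumors and 1596, 1785, 1706 and 1821 in hemizygous tumors. The log2 fold change over wild-type ganglia was 4.49 ± 0.25 SE, adjusted p = 2.15e-10, in homozygous tumors. By its second probe set, with a mean intensity of 143, Top2a changed by 2.45. A further probe set of Mcm7 changed by 4.70, so the rank depends on the probe set. Tipin, which protects stalled forks together with Timeless, read 229, 302, 119 and 122 in wild-type ganglia and 551, 543, 474 and 527 in homozygous tumors (1.47 ± 0.27 SE, adjusted p = 1.96e-04).

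Homozygous tumors were compared with homozygous ganglia, the tissue of origin with the same transgene. Both groups also enter the comparisons with wild-type ganglia. Of the 46 genes 15 were higher in tumors and 0 lower, with a median log2 fold change of 0.58 beside -0.03, where 9.35% of all genes were called higher and 12.3% lower. Every tumor lay above both ganglia for 29 genes and below both for 4, while these groups did not overlap for 57.3% of all genes. The 15 were Mcm3, Mcm5, Mcm6, Mcm8, Mcm10, Cdc6, Orc2, Cdc45, Gins1, Pold1, Pold2, Rfc5, Lig1, Dbf4 and Top2a. Pold2, an accessory polymerase subunit, read 121 and 104 in ganglia and 330.0, 377, 359.8 and 355 in tumors (1.54 ± 0.38 SE, adjusted p = 0.00882), and Rfc5 read 128 and 106 and 349.9, 303, 384 and 392 (1.48 ± 0.18 SE, adjusted p = 2.47e-05). By contrast Mcm4, Mcm7, Gmnn, Rfc4 and Pcna differed by -0.03, 0.25, 0.15, 0.07 and 0.05 and did not pass. Their 95% intervals were wide, for Mcm7 -0.61 to 1.11. By further probe sets Mcm7 differed by 0.36, 1.20 and 0.88, Mcm4 by 0.55 and Rfc4 by 0.10, and these were not all tested. The count depends on the arrays: it was 8 without homozygous ganglion 1, 1 without homozygous ganglion 2, 5 without the 6 arrays over 100 in the muscle gene Acta1, and 26 when only the compared arrays were fitted.

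Hemizygous and homozygous tumors differed in few of these genes. Cdc45, Mcm10, Pold2 and Rfc5 were higher in hemizygous tumors and 0 were lower, with a median log2 fold change of 0.33 beside 0.06, where 3.46% of all genes were called higher and 2.74% lower. Pold2 read 733, 629.5, 1042 and 854 in hemizygous and 330.0, 377, 359.8 and 355 in homozygous tumors (1.14 ± 0.31 SE, adjusted p = 0.0382). Rfc5 read 538, 487, 589.7 and 551 and 349.9, 303, 384 and 392 (0.58 ± 0.14 SE, adjusted p = 0.022). Cdc45 differed by 0.71 ± 0.21 SE, adjusted p = 0.0475, and Mcm10 by 0.61 ± 0.18 SE, adjusted p = 0.0464. By their second probe sets, which were dim, Cdc45 differed by 0.10 and Mcm10 by -0.05. Every hemizygous tumor lay above every homozygous tumor for 18 genes, these 4 among them, and below for 2, while the groups did not overlap for 20.6% of all genes. In all, 38 of the 46 log2 fold changes were above 0. The calls rest on single arrays: 0 passed without hemizygous tumor 3, hemizygous tumor 4, homozygous tumor 1 or homozygous tumor 2. For the helicase ring the intervals by the brightest probe sets were -0.45 to 0.61 for Mcm5 and -0.26 to 0.60 for Mcm6. These leave out a doubling in either direction. By second probe sets Mcm5 differed by 0.74, outside its interval, and Mcm6 by 0.45. Mcm2, Mcm3, Mcm4 and Mcm7 differed by 0.73, 0.74, 0.28 and 0.40 by theirs, so the size of the difference depends on the probe set. Endothelial markers summed to 182 to 281 in hemizygous and 71.5 to 90.6 in homozygous tumors, and their part in the difference was not tested.

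Hemizygous tumors 3 and 4 stood apart from 1 and 2 in part of the genes. For 26 of the 46 genes both of tumors 3 and 4 lay above both of tumors 1 and 2, and for 5 the reverse held, while among all genes tested the shares were 31.1% and 21.8%. Pola2 read 170.2, 160.3, 291 and 328 in hemizygous tumors 1 to 4 and Rfc3 read 156, 139, 322 and 331. Cdc45, Mcm10, Pold2 and Rfc5 were among the 26. In homozygous tumors 13 genes were higher in 1 and 2 and 11 in 3 and 4, while 27.7% and 26% of all genes were. In wild-type ganglia 29 were higher in 1 and 2 and 5 in 3 and 4, while 34.9% and 30.3% of all genes were; Rfc3, for example, read 52.6, 55.4, 4.98 and 6.99. Skeletal muscle markers summed to 24.1 to 3987 in this group, and Acta1, one of them, read 1042, 529, 16.02 and 7.10 in wild-type ganglia 1 to 4. The part of muscle RNA in this split, and in that of Fen1, was not tested. These pairs were formed by replicate number, and the labels do not say what the numbers stand for.

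**Figure D5:**
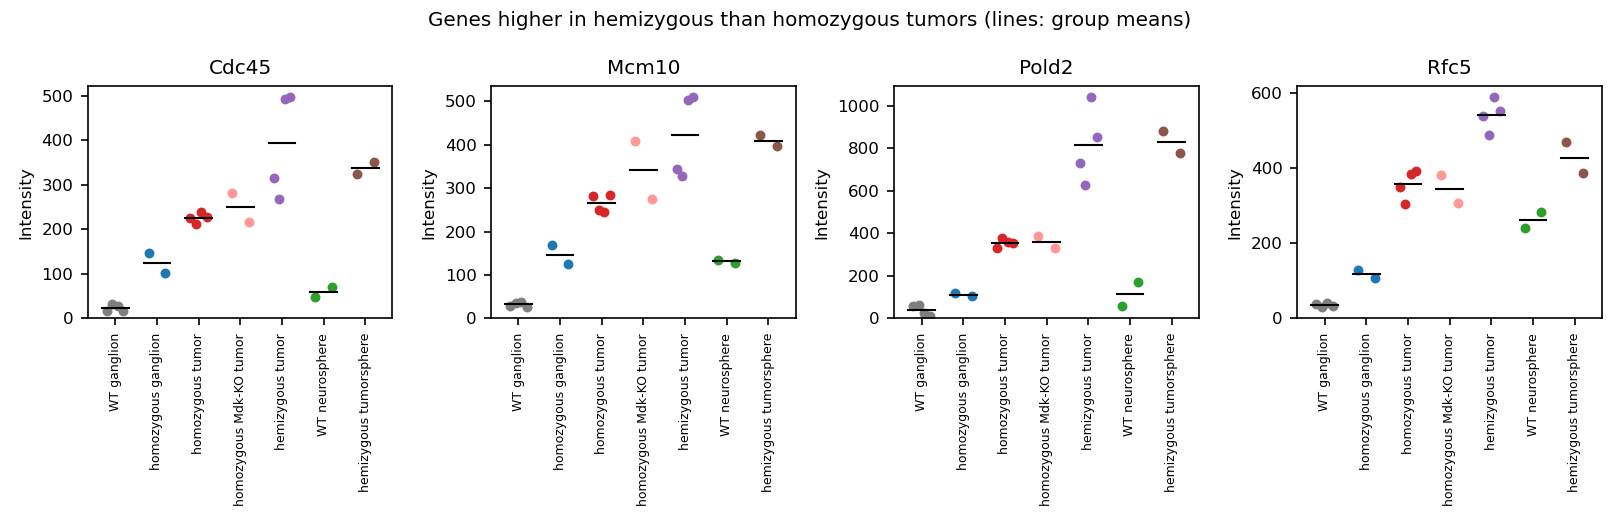
Intensity (vertical axes, linear, from 0) of the 4 genes higher in hemizygous than in homozygous tumors, on each array, by group; points are arrays and lines are group means. The hemizygous tumors lie above the homozygous tumors on every array for Cdc45, Mcm10, Pold2 and Rfc5, and in each of them hemizygous tumors 3 and 4 lie above 1 and 2.

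No change of these genes was detected in tumors without Mdk. In Mdk-KO tumors against homozygous tumors 0 of the 46 genes passed (limma), 0 had an unadjusted p under 0.05, and the median log2 fold change was 0.12 beside 0.00, where 0.00661% of all genes were called, which is Mdk itself. Mcm5 read 1954 and 1674, Cdt1 2053 and 1637 and Top2a 2170.2 and 1717 in Mdk-KO tumors, within or near the homozygous tumors given above. With 2 Mdk-KO arrays the 95% intervals were -0.54 to 0.76 for Mcm5, -0.65 to 0.62 for Top2a and -0.53 to 1.05 for Cdt1, so that a doubling of Mcm5 and Top2a lies outside them and a doubling of Cdt1 does not. The neuron markers summed to 3149 to 4101 in Mdk-KO tumors.

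Few of these genes passed between tumorspheres and hemizygous tumors. Of the 46 genes 0 were higher and 2 lower in culture, Gins1 and Pola1, with a median log2 fold change of 0.01 beside 0.01, where 6.99% of all genes were called lower and 5.61% higher. An unadjusted p under 0.05 was reached by 6 genes. Both tumorspheres lay below every hemizygous tumor for 12 genes and above for 1, while these groups did not overlap for 42.3% of all genes. Gins1 read 341 and 366 in tumorspheres and 550.4, 611, 646 and 481 in tumors (-0.66 ± 0.19 SE, adjusted p = 0.0258), and Pola1 read 113 and 120.0 and 193, 228, 227 and 263 (-0.88 ± 0.26 SE, adjusted p = 0.0311). Cdc6 read 171 and 159.5 and 350.1, 432, 324 and 296 without overlap and came just short of the threshold (-1.004 ± 0.33 SE, adjusted p = 0.0506). Leaving out single arrays gave counts of 0 to 3. By their second probe sets, with mean intensities of 11.2 and 4.91, Gins1 changed by -0.12 and Pola1 by 0.09. Of the 31 genes with a second probe set past the filter, 1 was called lower by the brightest probe set and 1 by the second. Macrophage markers, which summed to 569 to 1587 in hemizygous tumors, summed to 22.1 to 31.8 in tumorspheres, and fibroblast markers to 1257 to 3797 and 18.6 to 23.5.

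Tumorspheres and wild-type neurospheres are both proliferating cultures, and the replication genes still differed between them. Of the 46 genes 29 were higher and 1 was lower in tumorspheres, with a median log2 fold change of 1.31 beside 0.11, where 23.5% of all genes were called higher and 14.9% lower. Pold2 read 883 and 777 in tumorspheres and 56.5 and 171 in neurospheres (2.86 ± 0.44 SE, adjusted p = 6.11e-05). Mcm3 read 777 and 616 and 61.8 and 176 (2.53 ± 0.39 SE, adjusted p = 5.16e-05), and Gmnn read 944 and 1589.5 and 224 and 128 (2.74 ± 0.56 SE, adjusted p = 7.62e-04). Of 10 mitosis markers tested 6 were also higher and 0 lower in tumorspheres, with a median log2 fold change of 1.12. Birc5, an inhibitor of apoptosis that acts at the centromere in mitosis, read 806 and 851 in tumorspheres and 47.3 and 87.3 in neurospheres (3.38 ± 0.31 SE, adjusted p = 1.36e-07). Mki67 alone among the 10 had a negative log2 fold change, which did not pass: it read 2029.7 and 1854 in tumorspheres and 2836 and 1969 in neurospheres (-0.28 ± 0.38 SE, adjusted p = 0.613). Dbf4 and Cdc7 also did not pass, with 584 and 518 and 507 and 677 for Dbf4 (-0.09 ± 0.31 SE, adjusted p = 0.862). The neurosphere arrays differed from each other, for example 217 and 512 for Mcm2, and in their 3′ over 5′ ratios, which were 7.77 and 3.78 for beta-actin and 3.37 and 11.5 for Gapdh in neurospheres 1 and 2. Neural stem cell markers summed to 4339 and 4339.8 in neurospheres and to 52.2 and 55.1 in tumorspheres. Sox2 and Olig2 made up most of the neurosphere sums, while Nes read 58.1 and 51.0 in neurospheres and 30.5 and 41.6 in tumorspheres. The part of cell type in the difference was not tested. Without neurosphere 1 the count of called genes was 20.

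The gene lower in tumorspheres was Rfc1, the large clamp loader subunit. Its brightest probe set read 1000.4 and 1098 in neurospheres, 411 and 329 in tumorspheres and 197 to 394 in wild-type ganglia, which is a log2 change of -1.47 ± 0.26 SE, adjusted p = 2.50e-04, between the cultures. The second Rfc1 probe set changed in the other direction, by 0.37 (adjusted p = 0.435), so the direction depends on the probe set.

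Neurospheres were also compared with wild-type ganglia, and neither carries the transgene. These groups differ in cell type markers and in culture as well as in proliferation, and the part of each was not tested. Of the 46 genes 27 were higher and 1 was lower in neurospheres, with a median log2 fold change of 0.87 beside -0.12, where 16.8% of all genes were called higher and 22.4% lower. All 6 MCM2-7 genes and both kinase subunits were among the 27. Dbf4 read 507 and 677 in neurospheres (3.57 ± 0.27 SE, adjusted p = 7.80e-09) and had its highest group mean there. Top2a, at 602 and 798, rose by 3.01 ± 0.30 SE, and Rfc5, at 240.4 and 283, by 2.42 ± 0.18 SE. Several genes that rose in the tumors did not pass here. Gmnn was 224 and 128 in neurospheres and 374, 755, 124 and 148 in wild-type ganglia (-0.63 ± 0.48 SE, adjusted p = 0.323), Pola2 changed by 0.34 ± 0.40 SE, adjusted p = 0.529, and Rfc3 by 0.29 ± 0.49 SE, adjusted p = 0.68. The lower gene was Fen1 by its brightest probe set (-2.04 ± 0.72 SE, adjusted p = 0.0317), whereas its second probe set changed by 0.30 (adjusted p = 0.313). With only the 6 compared arrays the count of called genes was 12.

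Other genes of the same pathways rose as well. Of 32 further replication genes 30 were tested, and 26 rose and 1 fell in homozygous tumors over wild-type ganglia, 27 rose and 1 fell in hemizygous tumors and 14 rose in homozygous ganglia. Uhrf1, which guides DNA methylation onto new strands, and Clspn, which carries the stalled-fork signal, rose by 3.41 ± 0.26 SE and 3.28 ± 0.19 SE in homozygous tumors. Atad5, which unloads the clamp, and Chaf1b, which places histones behind the fork, rose by 2.99 ± 0.21 SE and 2.91 ± 0.18 SE. The small polymerase subunit Pold4 fell by 0.67 (51.1, 38.0, 33.2 and 29.9 in wild-type ganglia and 21.0, 24.3, 15.3 and 11.6 in homozygous tumors, adjusted p = 0.0104). Of 13 E2F and Rb family genes 9 rose in each kind of tumor and 4 in homozygous ganglia. E2f8, a repressor of the family, read 21.5, 39.5, 27.7 and 9.80 in wild-type ganglia, 131 and 82.0 in homozygous ganglia and 429, 380.2, 518 and 496 in homozygous tumors (3.58 ± 0.24 SE, adjusted p = 1.76e-09).

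Of 7 cyclin and kinase genes of the entry into S phase, 5 rose in homozygous tumors, among them Ccna2 (3.38 ± 0.23 SE) and Ccne1 (2.29 ± 0.18 SE). Between hemizygous and homozygous tumors Ccne1, the cyclin that starts S phase with Cdk2, was lower (-0.93 ± 0.18 SE, adjusted p = 0.00413). In tumorspheres the inhibitor Cdkn1a read 693 and 1412 against 152, 246, 76.8 and 135 in hemizygous tumors (2.67 ± 0.39 SE, adjusted p = 1.35e-04). High Cdkn1a was not particular to tumorspheres: wild-type neurospheres read 1219 and 2575, and wild-type ganglia 479, 297, 252 and 353. All 10 mitosis markers tested rose in homozygous tumors, hemizygous tumors and homozygous ganglia, with median log2 fold changes of 3.37, 3.68 and 2.56.

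The calls were also set beside those of a second probe set. Of the 46 genes 33 had more than 1 probe set, 98 in all, and 31 second probe sets passed the filter. In homozygous tumors over wild-type ganglia 28 of these 31 genes rose by the brightest probe set and 26 by the second, 25 of them by both, and no gene was called in opposite directions. In hemizygous tumors the numbers were 28, 25 and 23, in homozygous ganglia 21, 16 and 14, in neurospheres over wild-type ganglia 20, 11 and 11, and in tumorspheres over neurospheres 17, 17 and 11. For homozygous tumors over homozygous ganglia they were 9, 8 and 5, and for hemizygous over homozygous tumors 2, 2 and 0.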

How the data were processed

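RNA from 20 samples was hybridised to Affymetrix Mouse Genome 430 2.0 arrays, and per the labels' protocols 40 ng of RNA went through 2 amplification cycles before labelling. The deposited file lists the linear intensity of each probe set, scaled by the authors so that array means are equal once 2% is trimmed at each end. How probes were summarized is not given in the sources. Values were taken as log2(intensity + 16) without further normalization, since array medians spanned 0.33.

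Of 45101 probe sets 64 controls were left out, and 34945 of the rest carry 1 gene symbol in GEO's platform annotation, 932 several and 9160 none. Symbols were updated through gene identifiers (GRCm38.p6), which held 34741. Where a gene had several probe sets, the brightest on average stood for it. Genes above the 40th percentile on at least 2 arrays (15132) were fitted in 1 model with 7 group means (lmFit and eBayes of limma 3.58.1 in R 4.3.3, with 13 residual degrees of freedom before moderation), two-sided, with Benjamini-Hochberg adjustment over all genes tested in each of 9 comparisons. The Cdt1 to Gmnn ratio was tested by exact permutation (SciPy 1.17.1). Promoter windows come from RefSeq (GRCm38.p6). The fit was tested on simulated arrays.

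The genes and lists were chosen with earlier results of these data known, so counts over them are descriptions and not independent evidence. All 46 genes could be named. From the other lists up to 4 genes with the highest and 4 with the lowest change among those past the threshold were eligible in each comparison, with Mdk, Mki67 and the cell type markers, and Mycn was added after its values were seen. Chaf1a, Ssrp1, Ccnb1 and Plin1 were not analysed here, and some cell type markers are not reported here. No array repeated another: the highest correlation between arrays was 0.99. Precision is limited by the number of arrays.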

Additional observations from a re-analysis of the deposited data

Results flagged for a closer look

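In groups of 4 arrays 138 sets of values were searched for 1 array far from the other 3 (Dixon's ratio over 0.829). Chance gives about 5% of sets such an array, and 6 were found. Mcm4 was lowest in homozygous tumor 3 at 802, with the others at 964 to 993, and highest in wild-type ganglion 2 at 477, with the others at 265 to 284. Mcm6 was highest in homozygous tumor 4 at 1072, with the others at 915 to 932. Orc4 was highest in wild-type ganglion 3 at 208, with the others at 142 to 149.9, and Lig1 was lowest in the same ganglion at 35.2, with the others at 97.9 to 106. Prim1 was highest in hemizygous tumor 3 at 1347.5, with the others at 1144 to 1170.2.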

How the results depend on the processing

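The counts over wild-type ganglia in tumors kept within 1.5 times under all alternatives run: 37 to 43 genes in homozygous and 38 to 45 in hemizygous tumors over 15 settings, and 41 to 43 and 41 to 42 with 1 array left out. Tumorspheres over neurospheres gave 28 to 36, and 20 to 32 with 1 array left out. Mdk-KO tumors gave 0 throughout.

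The other counts moved. Hemizygous against homozygous tumors (4 genes) gave 1 with median centring, 0 with a pseudocount of 1, 7 with 64, 9 with only the compared arrays, 0 without the arrays over 100 in Acta1, 1 with a log2 fold change of at least 1, and 0 to 5 with 1 array left out. Tumorspheres against hemizygous tumors (2) gave 0 with median centring, 1 with a pseudocount of 1, 5 with only the compared arrays, 4 without the Acta1 arrays, 0 with a log2 fold change of at least 1, 1 by the second-brightest probe set, and 0 to 3 with 1 array left out. Homozygous tumors against homozygous ganglia (15) gave 7 with a pseudocount of 1, 26 with only the compared arrays, 5 without the Acta1 arrays, 7 with a log2 fold change of at least 1, and 1 to 14 with 1 array left out. Homozygous against wild-type ganglia (32) gave 12 with only the compared arrays and 17 to 36 with 1 array left out. Neurospheres against wild-type ganglia (28) gave 12 with only the compared arrays, 16 by the second-brightest probe set, and 20 to 30 with 1 array left out. The second probe set was chosen as an alternative after seeing the data. Fewer arrays in the fit leave fewer degrees of freedom. For the rest the cause was not tested.

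The Cdt1 to Gmnn difference fell to 0.16 (exact permutation, adjusted p = 0.771) in homozygous and 0.58 (adjusted p = 0.471) in hemizygous tumors with the mean over probe sets. With 1 array left out it was 1.55 to 1.87 and 1.92 to 2.27 (exact, adjusted p = 0.0857, the smallest those designs allow), and 0.19 to 0.54 between tumors.

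Directions turned for Fen1 over wild-type ganglia 1 and 2 alone, to -1.46 in homozygous and -1.57 in hemizygous tumors. By the second-brightest probe set they turned in hemizygous tumors over wild-type ganglia for Orc3 (-0.0713) and Rfc1 (-0.0778), in homozygous ganglia for Gins1 (-0.0167) and Pole2 (-0.0512), in homozygous tumors over homozygous ganglia for Fen1 (1.01) and Orc2 (-0.13), in hemizygous over homozygous tumors for Mcm10 (-0.0486), in tumorspheres over neurospheres for Rfc1 (0.37), and in neurospheres over wild-type ganglia for Cdc45 (-0.29), Fen1 (0.30), Orc2 (-0.0792) and Pold3 (-0.24). No called gene turned with quantile normalization or median centring. Of all values of single genes under an alternative, 14 turned, 397 no longer passed, 160 newly passed and 7829 did neither.

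The labels do not say whether replicate numbers pair the samples, and the values do not settle it. Deviations of same-numbered arrays correlated at 0.07 to 0.25 between homozygous tumors and wild-type ganglia but at -0.31 to -0.13 between the tumor groups. With the replicate number as a block the counts were 42 in homozygous and 43 in hemizygous tumors over wild-type ganglia, 23 in homozygous ganglia, 11 in homozygous tumors over homozygous ganglia, 1 in hemizygous over homozygous tumors, 32 in tumorspheres over neurospheres and 26 in neurospheres over wild-type ganglia. For the Cdt1 to Gmnn differences of 1.73 and 2.10 the block test over 4 pairs gave adjusted p = 0.1875 (exact) and cannot pass.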
